A study of Mus musculus with 12 samples.

Results

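Markers of liver macrophages, 10 of the 22180 named genes on the arrays, were followed across 4 dietary groups of male C57BL6 mice. The set was chosen by gene symbol from the platform annotation, and each of the 10 genes had 1 probe set, so that no choice between probe sets was needed. Of these, 5 mark the resident macrophages of the liver, the Kupffer cells (Clec4f, Timd4, Marco, Vsig4 and Cd5l), and the other 5 mark macrophages in general (Adgre1, Cd68, Csf1r, C1qa and C1qb). The mice entered at 6 weeks of age and were killed at 18 weeks, after 12 weeks of free access to a diet with 10% (low-fat) or 45% (high-fat) of its energy from fat. The low-fat control and high-fat control groups ate the plain diet, and the low-fat MSX and high-fat MSX groups ate the same diet with 0.5% (w/w) of a maple syrup extract, MSX. Each group had 3 arrays of whole-liver RNA, labelled as biological replicates, and the labels do not say whether an array held the RNA of 1 mouse or a pool.

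Kupffer cells line the liver sinusoids, where they take up particles, bacteria, old red cells and lipids from portal blood. They are seeded before birth and renew themselves, and when they are lost, blood monocytes can enter and take on most of their genes, with Timd4 among the last to appear. General macrophage genes are carried by Kupffer cells and by newly arrived macrophages alike, so that the resident markers set against the general ones are commonly used to tell the populations apart. In RNA of whole liver, fewer macrophages and less RNA of a gene per macrophage cannot be told apart.

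Hepatocyte genes were bright on every array, with Alb between 13.88 and 13.95 and Cps1, a urea cycle enzyme, between 12.21 and 12.90 on the log2 scale of the deposited array values. Alb lay near the highest value of any probe set, 14.08. Cps1 was lower in high-fat than in low-fat control without overlap (−0.41, SE 0.12, limma adjusted p = 0.508), as were 6.1% of all genes. Array medians over all probe sets lay between 4.68 and 4.75. The resident marker Clec4f lay between 7.81 and 8.78 and the macrophage marker Csf1r between 7.16 and 8.36, so that the genes that define the cells were measured on all 12 arrays.

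None of the 10 markers passed the threshold (adjusted p under 0.05, limma with Benjamini-Hochberg adjustment over all genes) in any of 7 comparisons of diet and extract. The pattern of the set was instead one of arrays: 9 of the 10 genes went up and down together from array to array, also inside a group. Marco did not follow them over the 12 arrays, and inside groups it did so only weakly (median Pearson r 0.35). Over the 12 arrays the pairwise correlations among those 9 had a median Pearson r of 0.89 (36 pairs, from 0.68 to 0.97). After each group's mean was taken out the median was 0.91, from 0.69 to 0.97. These are descriptions over arrays that share each liver's RNA and its processing.

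The widest swings were in the high-fat control group. Vsig4, a complement receptor of the immunoglobulin family on Kupffer cells, was at 8.64, 8.65 and 6.94 in high-fat control replicates 1, 2 and 3, and at 7.60, 7.44 and 8.17 in the low-fat controls. With extract it was at 8.61, 8.52 and 8.09 on the low-fat diet and at 8.61, 8.45 and 8.36 on the high-fat diet. High-fat control replicate 3 was the lowest of all 12 arrays and lay far below its own group, whose other arrays were the highest of all.

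C1qb, a chain of the complement initiator C1q that macrophages secrete, had the same shape. It was at 9.69, 9.58 and 8.03 in the high-fat controls, at 8.26, 8.64 and 9.17 in the low-fat controls, at 9.32, 9.29 and 8.74 in low-fat MSX and at 9.25, 9.05 and 9.16 in high-fat MSX. Again high-fat control replicate 3 was the lowest array, with replicates 1 and 2 of the same group the highest. Timd4, a receptor for phosphatidylserine on dying cells, was at 6.28, 6.40 and 4.95 in the high-fat controls and between 5.33 and 6.46 on the other arrays.

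High-fat control replicate 3 held the lowest value of 7 of the 10 markers (Clec4f, Timd4, Vsig4, Cd5l, Adgre1, Csf1r and C1qb), where 8.56% of all genes had theirs. Cd5l, Adgre1, Cd68, Csf1r and C1qb, 5 of 10, had their highest value in high-fat control replicate 1, where 9.56% of all genes had theirs. All 10 markers lay above their own mean in high-fat control replicates 1 and 2, and 0 of 10 did so in replicate 3. In low-fat control replicate 2 also 0 of 10 lay above their mean, and in replicate 1 of that group only Marco did, which had its highest value there.

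**Figure D1:**
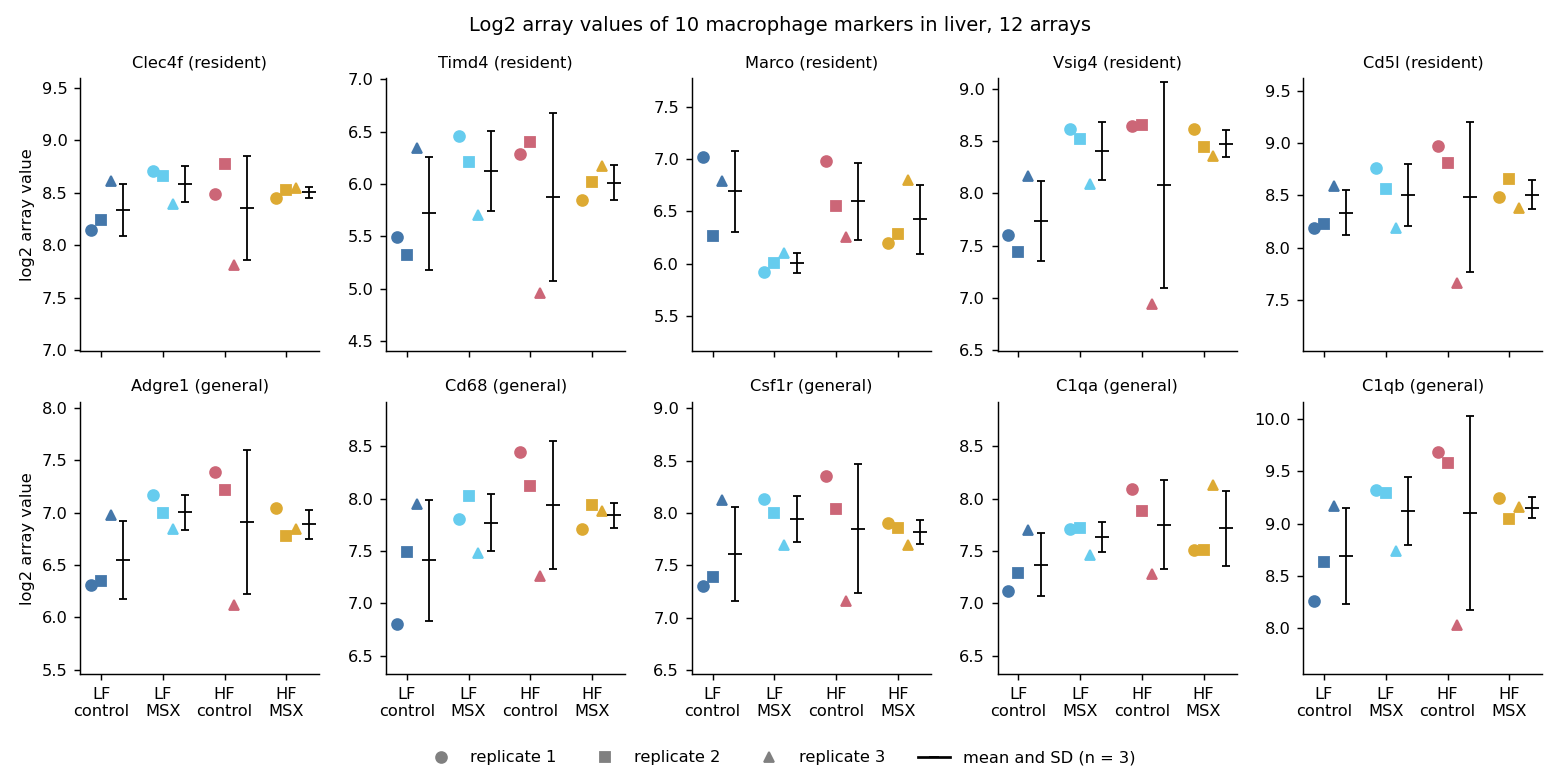
Log2 array values (vertical axis) of the 10 markers in the 4 groups (LF, low-fat; HF, high-fat), with 1 point per array shaped by replicate number, and the group mean with its SD (n = 3) in black. All panels span the same number of log2 units; high-fat control replicate 3 lies lowest for 7 of the 10 genes, and Marco is low on the 3 low-fat MSX arrays.

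The range over the 3 arrays of a group was widest in the high-fat controls for 9 of 10 markers, where 24.9% of all genes had their widest range. It was narrowest in high-fat MSX for 8 of 10 markers, against 24.1% of all genes. The median range over the 10 markers was 1.23 in high-fat control, 0.74 in low-fat control, 0.48 in low-fat MSX and 0.26 in high-fat MSX, on the log2 scale, while the median over all genes lay between 0.29 and 0.32 in every group. Clec4f, a C-type lectin found on Kupffer cells of rodents, ran from 7.81 to 8.78 in the high-fat controls and from 8.45 to 8.55 in high-fat MSX. With 3 arrays a group this difference in spread is a description and was not tested.

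**Figure D2:**
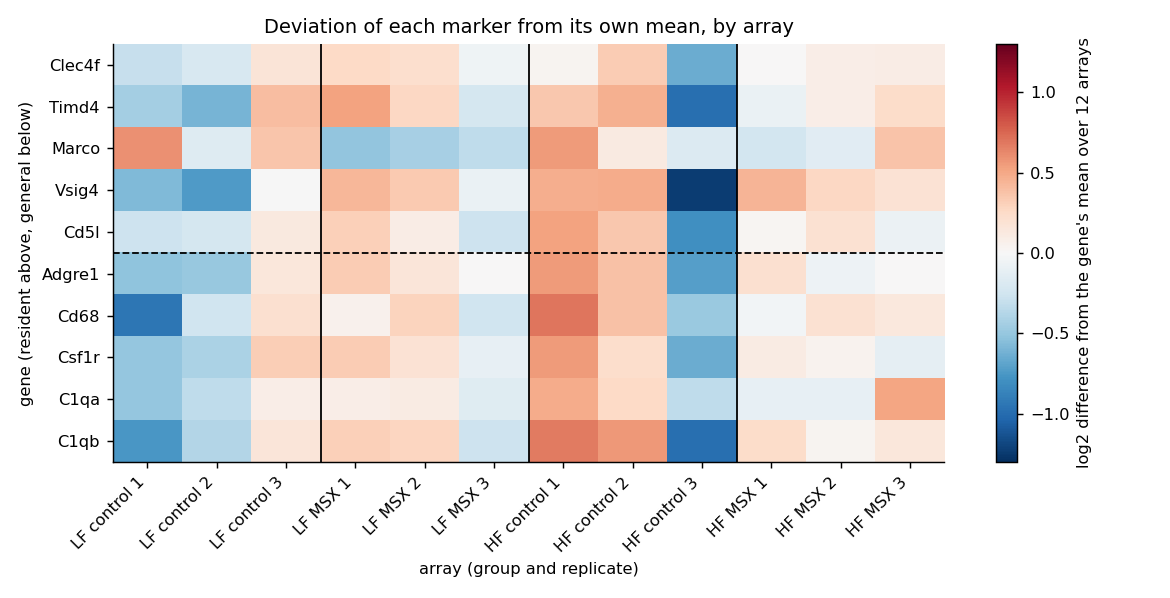
Difference of each marker (rows; resident genes above the dashed line) from its own mean over the 12 arrays, in log2 units by colour, for each array (columns, by group and replicate). In most columns the rows other than Marco share a colour; high-fat control replicates 1 and 2 are red and replicate 3 is blue.

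The promoters of some of the members that moved together, and of Marco, which over the 12 arrays did not, are shown to let the sequences be compared. The RefSeq promoter table (GRCm38.p6) held 7 of the 10 members, from 250 bases before to 50 bases after a start of the gene. The 250 bases before the start are printed for 4 of them on the strand of the gene, with each match to GAGGAA on either strand in capitals. That is the purine core bound by PU.1, the product of Spi1 and a main regulator of macrophage genes. The 4 windows are Vsig4 at chrX:96293439-96293688, C1qb at chr4:136886201-136886450, Cd68 at chr11:69666171-69666420 and Marco at chr1:120505025-120505274, all from genes on the minus strand.
Vsig4: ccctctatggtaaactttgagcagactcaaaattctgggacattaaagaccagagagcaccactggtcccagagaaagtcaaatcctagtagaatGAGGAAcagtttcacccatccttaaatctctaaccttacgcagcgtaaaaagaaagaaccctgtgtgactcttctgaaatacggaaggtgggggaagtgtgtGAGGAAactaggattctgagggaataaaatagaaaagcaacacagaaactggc
C1qb: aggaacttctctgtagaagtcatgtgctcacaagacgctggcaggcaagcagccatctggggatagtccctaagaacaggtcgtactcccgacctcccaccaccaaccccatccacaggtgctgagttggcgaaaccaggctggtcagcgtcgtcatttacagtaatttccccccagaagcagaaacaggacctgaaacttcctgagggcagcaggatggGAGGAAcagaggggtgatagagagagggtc
Cd68: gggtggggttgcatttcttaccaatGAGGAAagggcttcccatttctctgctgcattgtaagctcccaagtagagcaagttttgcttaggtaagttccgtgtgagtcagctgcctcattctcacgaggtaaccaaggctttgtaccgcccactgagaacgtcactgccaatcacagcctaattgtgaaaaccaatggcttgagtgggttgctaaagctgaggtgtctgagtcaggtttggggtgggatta
Marco: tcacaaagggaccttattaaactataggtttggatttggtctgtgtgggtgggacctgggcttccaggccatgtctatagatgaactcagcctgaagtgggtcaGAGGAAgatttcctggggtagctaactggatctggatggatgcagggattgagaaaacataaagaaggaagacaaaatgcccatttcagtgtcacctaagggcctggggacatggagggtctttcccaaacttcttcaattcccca

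GAGGAA was found in 5 of the 7 member promoters held, against 28.3% of all 32851 promoters of that length. Vsig4 had 2 matches on the strand of the gene, starting 155 and 53 bases before the start. Cd68 had 1 match before the start and 1, not printed, after it on the opposite strand. C1qb had 1 and Marco 1, which starts 146 bases before the start. The other member promoter with a match was Cd5l. Clec4f and Timd4, which moved with the others and are not printed, had 0 matches, while each of the promoters printed had a match. TGCTGA, the core of a half-site for MAF factors, was in 5 of the 7 (19.5% of all promoters) and was not among the letters of the Marco or Cd68 windows. The E-box CACGTG and TATAAA were in 0 of the 7, against 7.15% and 13.6% of all promoters. No pair of the motifs searched shared bases in the windows shown. A match is a description of letters in a window, and these windows do not include more distant enhancers.

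The comparison of high-fat with low-fat control addressed the diet alone. The general macrophage markers lay higher on the high-fat diet on average, but each overlapped between the groups. Cd68, a glycoprotein of macrophage lysosomes, was at 8.44, 8.12 and 7.26 in the high-fat controls and at 6.80, 7.49 and 7.95 in the low-fat controls. Its log2 fold change of 0.53 (SE 0.30, adjusted p = 0.786) had the lowest p of the 10 markers. The lowest of the high-fat arrays was below the highest pair of low-fat arrays.

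On the log2 scale C1qa, another C1q chain, differed by 0.38 (SE 0.23, adjusted p = 0.8) and C1qb by 0.41 (SE 0.36, adjusted p = 0.888). Adgre1, an adhesion-type receptor on the surface of mouse macrophages, differed by 0.36 (SE 0.28, adjusted p = 0.865), and Csf1r, the receptor for the macrophage growth factors Csf1 and Il34, by 0.24 (SE 0.27, adjusted p = 0.915). The resident markers lay nearer 0 except Vsig4, at 0.34 (SE 0.36, adjusted p = 0.913). Timd4 was at 0.16, Cd5l, a secreted scavenger receptor protein of macrophages, at 0.15, Clec4f at 0.02 and Marco at −0.09, with adjusted p between 0.957 and 0.991.

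Of the 10 markers, 0 passed the threshold with the diet, where 0.018% of all genes passed, and 0 had an unadjusted p under 0.05 by limma, against 6.78% of all genes. That count rests on high-fat control replicate 3: without it 8 of 10 markers were higher by unadjusted p under 0.05 (all but Clec4f and Marco; 7.31% of all genes in either direction), with a lowest adjusted p of 0.343. Without low-fat control replicate 3 it was 2 of 10, Cd68 and C1qa (8.4% of all genes), and with array weights 1 of 10, Cd68 (7.1%). Groups without overlap were found for 0 of 10 markers, against 5.29% of all genes higher and 6.1% lower. The median over the 10 was 0.29 and that over all genes was 0.00 (−0.0048). Leaving out 1 array of the high-fat controls moved the median to 0.03 (replicate 1), 0.10 (replicate 2) or 0.62 (replicate 3). For the low-fat controls it moved to 0.15 (replicate 1), 0.17 (replicate 2) or 0.53 (replicate 3). The 95% intervals of 7 of the 10 fold changes lay inside 2-fold in either direction, and those of Vsig4, Cd68 and C1qb reached past it.

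**Figure D3:**
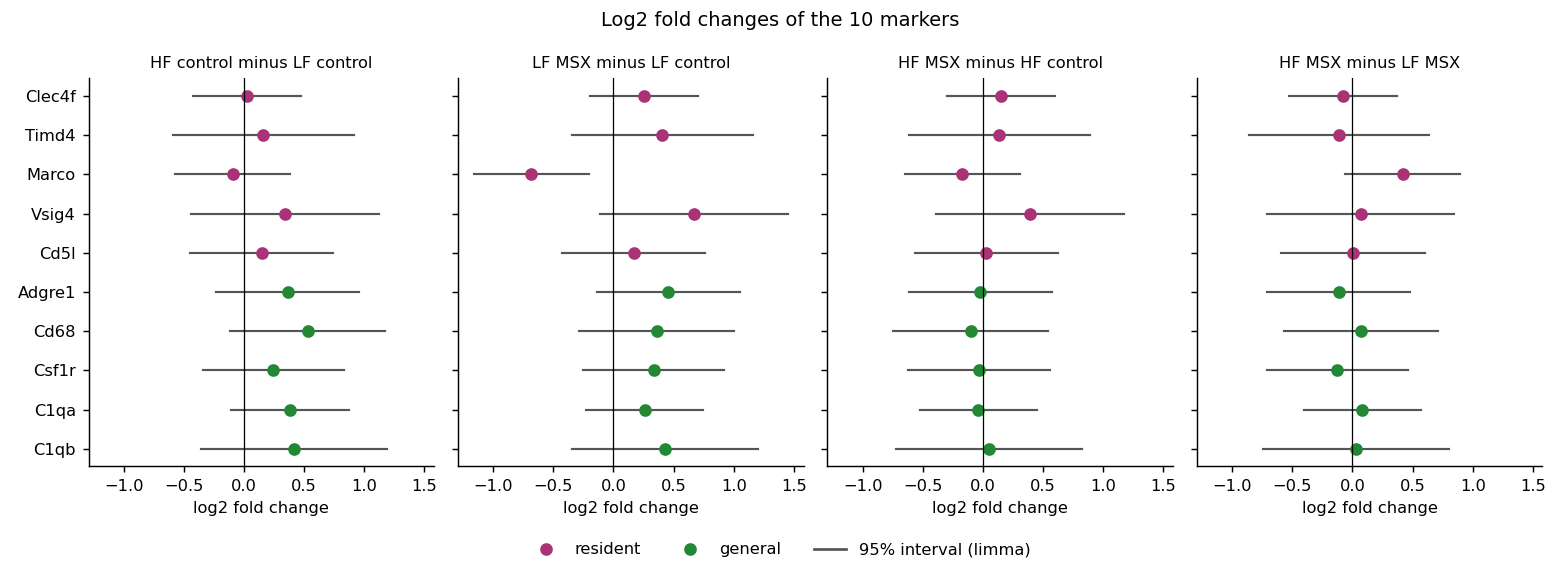
Log2 fold change (horizontal axis) of each marker in 4 comparisons, as points with 95% intervals from limma on 12 arrays; positive values are higher in the first-named group. Every interval spans 0 except that of Marco in low-fat MSX against low-fat control.

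Low-fat MSX against low-fat control asked what the extract did without the high-fat diet, and held the lowest p of any marker in the 7 comparisons. Marco, a class A scavenger receptor that binds bacteria and particles, was at 7.02, 6.26 and 6.79 in the low-fat controls and at 5.92, 6.00 and 6.10 in low-fat MSX. All 3 MSX arrays lay below all 3 control arrays, and they were also the lowest 3 of the 12. Its log2 fold change was −0.68 (SE 0.22, 95% interval −1.16 to −0.20), with an unadjusted p of 0.00884 by limma and an adjusted p of 0.434, so that it did not pass the threshold. With each array of both groups left out in turn the fold change stayed between −0.90 and −0.52.

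The other 9 markers had fold changes above 0 in the same comparison, as 49.7% of all genes did, and 0 of the 9 passed the threshold. Vsig4 was at 0.67 (SE 0.36, adjusted p = 0.68), Adgre1 at 0.46 (SE 0.28, adjusted p = 0.718), C1qb at 0.43 and Timd4 at 0.41. Cd68, Csf1r, C1qa, Clec4f and Cd5l lay between 0.17 and 0.36. All 9 overlapped between the groups: low-fat control replicate 3 lay within the MSX range for each of them, while replicates 1 and 2 lay below that range for 7 of them (not for Cd68 and Cd5l).

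In all, 0 of 10 markers passed the threshold in low-fat MSX against low-fat control, where 0.158% of all genes did. By unadjusted p under 0.05 in limma 1 of 10 was lower and 0 higher, against 4.03% of all genes in each direction and 8.05% in all. The lower gene was Marco. Without low-fat control replicate 3 also 3 were higher, Vsig4, Adgre1 and Csf1r (8.56% of all genes in either direction). Without high-fat control replicate 3, or in a fit of only these groups, 2 were, Vsig4 and Adgre1 (8.08% and 7.49% of all genes). With array weights 1 was higher, Vsig4 (9.18% of all genes in either direction). Without overlap, 1 of 10 was lower against 6.73% of all genes, and 0 of 10 higher against 7.13%. The median of the 10 was 0.35, that over all genes 0.00 (−0.0014). The 95% intervals of 4 of the 10 fold changes lay inside 2-fold in either direction. Those of Timd4, Marco, Vsig4, Adgre1, Cd68 and C1qb reached past it. Leaving out 1 low-fat control array gave a median of 0.17 (replicate 1), 0.23 (replicate 2) or 0.61 (replicate 3). The comparison shares the low-fat controls with that of the diets, so that fold changes above 0 in both are not separate evidence.

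High-fat MSX against high-fat control asked what the extract did on the high-fat diet. The median over the 10 markers was 0.00 (0.0025; over all genes 0.0060), with single genes between −0.17 for Marco and 0.39 for Vsig4 (SE 0.36, adjusted p = 0.892). Clec4f was at 0.15, Timd4 at 0.13, C1qb at 0.05 and Cd5l at 0.03. Adgre1 was at −0.02, Csf1r at −0.03, C1qa at −0.04 and Cd68 at −0.10. Here 0 of 10 passed the threshold (0.0361% of all genes did) and 0 had an unadjusted p under 0.05 by limma, against 6.99% of all genes. Groups without overlap were found for 0 of 10, against 6.7% of all genes higher and 5.51% lower. The 95% intervals of 9 of the 10 fold changes lay inside 2-fold in either direction, and that of Vsig4 reached past it.

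All 10 of these fold changes turned their sign when 1 high-fat control array was left out. Without replicate 3, the median was −0.36, with Clec4f at −0.13, Timd4 at −0.33, Vsig4 at −0.17, Cd5l at −0.38 and C1qb at −0.48. Without replicate 1 it was 0.22, with Adgre1 and Csf1r both at 0.22, Cd68 at 0.15, C1qa at 0.13 and Marco at 0.02. None passed the threshold in either case.

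High-fat MSX against low-fat MSX, the diet effect with extract present, held fold changes between −0.12 and 0.42 with a median of 0.02. The highest was that of Marco, at 6.19, 6.28 and 6.80 on the high-fat diet, above all 3 low-fat MSX arrays given above. Its fold change was 0.42 (SE 0.22, adjusted p = 0.999), so that it did not pass the threshold, and 0.23 without high-fat MSX replicate 3. Of the 10 markers, 1 was higher without overlap, against 4.68% of all genes, and 0 lower, against 4.76%. By limma 0 of 10 passed the adjusted threshold, as did 0% of all genes, and 0 of 10 had an unadjusted p under 0.05, against 4.56% of all genes. In a fit of only these groups 1 had, Marco (4.63% of all genes). The 95% intervals of all 10 fold changes lay inside 2-fold in either direction.

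The difference between both extract effects (high-fat minus low-fat) was 0.51 for Marco (SE 0.31, adjusted p = 0.96) and lay between −0.48 and −0.10 for the other 9. It passed the threshold for 0 of 10 markers, as it did for 0% of all genes, and 0 of 10 had an unadjusted p under 0.05 by limma, against 5.09% of all genes. Without high-fat control replicate 3, 6 of 10 were lower by unadjusted p under 0.05 (5.77% of all genes in either direction), with a lowest adjusted p of 0.786. Without high-fat control replicate 1 or low-fat control replicate 2, 1 was higher, Marco (4.43% and 4.79% of all genes in either direction). The 95% intervals of 3 of the 10 differences lay inside 2-fold in either direction, and those of 7 reached past it. Averaged over both diets, the extract effect was −0.43 for Marco (SE 0.16, unadjusted p = 0.0176, adjusted p = 0.396) and 0.53 for Vsig4 (SE 0.26, unadjusted p = 0.0579, adjusted p = 0.532) by limma. The value of Vsig4 was 0.25 without high-fat control replicate 3. The 3 low-fat MSX arrays and high-fat MSX replicate 1 held the lowest 4 Marco values, and high-fat MSX replicates 2 and 3 lay within the range of the control arrays. For that average 0 of 10 markers passed the threshold against 0.261% of all genes, and by unadjusted p under 0.05 1 was lower and 0 higher, against 4.46% and 5.2% of all genes (9.66% in all). With 1 array left out the count in both directions ran from 0 (without low-fat control replicate 1, 9.74% of all genes) to 3 (without high-fat control replicate 2, 9.68%). With array weights 1 was lower, Marco, and 1 higher, Vsig4 (11.1% of all genes in either direction). The average diet effect lay between −0.03 and 0.30 over the 10 markers, with a median of 0.14, which was 0.03 without high-fat control replicate 1 and 0.30 without replicate 3. By limma 0 of 10 passed the threshold there, against 0.0225% of all genes, and 0 had an unadjusted p under 0.05, against 5.94% of all genes. Without high-fat control replicate 3, 6 of 10 were higher by unadjusted p under 0.05 (6.26% of all genes in either direction), with a lowest adjusted p of 0.639.

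The resident and the general markers moved together rather than apart. On each array the mean difference from the 12-array means was taken over the 5 resident and over the 5 general genes. It was 0.39 and 0.59 in high-fat control replicate 1, 0.35 and 0.36 in replicate 2, and −0.77 and −0.63 in replicate 3, each time resident first. The largest gap was in low-fat control replicate 1, where the resident genes lay at −0.20 and the general genes at −0.64. Resident minus general was 0.15 ± 0.25 (SD, n = 3) in low-fat control, −0.05 ± 0.04 in low-fat MSX, −0.12 ± 0.10 in high-fat control and 0.02 ± 0.06 in high-fat MSX. The low-fat control mean rests on replicate 1, at 0.45, since replicates 2 and 3 were at −0.02 and 0.03. On that replicate 1 array Marco lay 0.59 above its own mean, while Clec4f, Timd4, Vsig4 and Cd5l lay at −0.30, −0.45, −0.57 and −0.27.

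**Figure D4:**
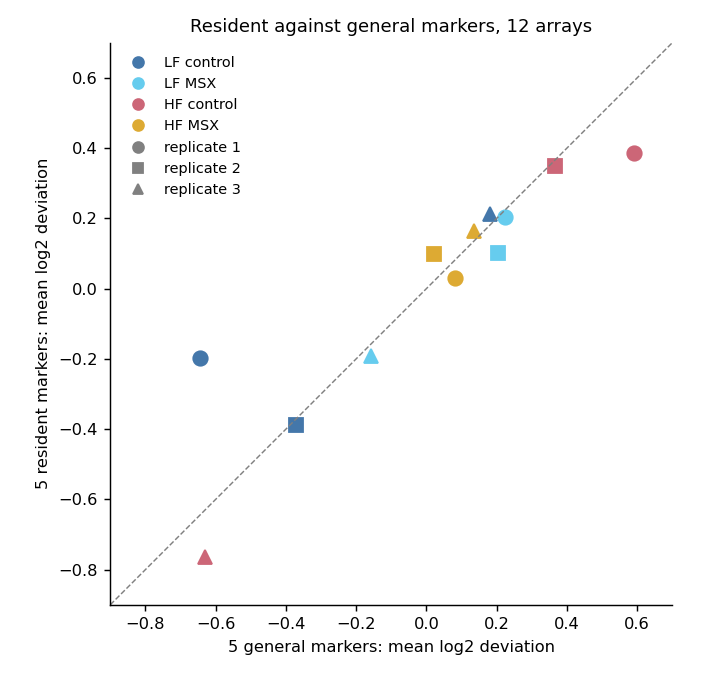
Mean log2 difference from the 12-array mean over the 5 resident markers (vertical axis) against that over the 5 general markers (horizontal axis), 1 point per array, coloured by group and shaped by replicate number; the dashed line marks equal values. High-fat control replicate 3 lies at the lower left and replicates 1 and 2 at the upper right, and low-fat control replicate 1 lies off the line.

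Among the resident genes Marco stood alone. Its Pearson r with the other 9 markers had a median of 0.03 over the 12 arrays (from −0.08 to 0.25) and of 0.35 inside groups (from 0.21 to 0.58). For each of the others the median r with the rest was between 0.74 (C1qa) and 0.91 (C1qb). C1qa shares its neighbourhood on chromosome 4 with C1qb and C1qc, and its highest array, at 8.13, was high-fat MSX replicate 3, in which C1qb was at 9.16, close to its group mean.

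The 5 genes outside the lists whose pattern was most like the mean of the 10 markers were Entpd1 (r = 0.97), Sdc3 (r = 0.97), Clec12a (r = 0.96), Fcgr4 (r = 0.96) and Igsf6 (r = 0.94), out of 11013 genes brighter than the median gene, over 12 arrays. These r values come from the top of a ranking and are descriptions.

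Other genes of Kupffer cells followed the markers in the arrays (the median over 12 such genes had r = 0.90 with the mean of the markers). Of these 12, 0 passed the threshold in any of the 7 comparisons. By unadjusted p under 0.05 in limma, 3 of the 12 were higher with extract on the high-fat diet (6.99% of all genes in either direction). With extract on the low-fat diet 1 was higher (8.05%), and in the average extract effect 2 were (9.66%). In each of these 0 were lower. C6, a late complement component that hepatocytes also make, and Slc40a1, the iron exporter ferroportin of iron-recycling macrophages, had the lowest p in the average extract effect. C6 was at 1.05 (SE 0.20, adjusted p = 0.0546) and Slc40a1 at 0.35 (SE 0.11, adjusted p = 0.282). Folr2, Cd163 and C1qc, further markers of resident macrophages, were at 0.23, 0.20 and 0.14.

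Of 10 phagocytic receptors, 0 rose and 1 fell in the average extract effect, where 0.261% of all genes passed. The same count held for the extract on the high-fat diet, where 0.0361% passed, and the gene was Cd36 in both. Cd36, a scavenger receptor and fatty acid translocase that hepatocytes also carry, fell by 1.33 on average (SE 0.18, adjusted p = 0.00679) and kept its call in all 19 alternatives run. On the high-fat diet it fell by 1.70 (SE 0.26, adjusted p = 0.0479), a call that held in 6 of 20 alternatives (adjusted p 0.0216 to 0.221). Mrc1, the mannose receptor, was at 0.29 (SE 0.11, adjusted p = 0.423). By unadjusted p under 0.05 in limma, 3 of the 10 receptors were higher and 0 lower in high-fat than in low-fat control (6.78% of all genes in either direction). With extract 0 were higher and 1 lower on the high-fat diet (6.99%), and 1 was higher and 1 lower on the low-fat diet (8.05%). Of 6 growth factor and transcription factor genes measured, 0 passed in any comparison. Il34, a ligand of Csf1r, was at −0.40 with extract on the high-fat diet (SE 0.14, adjusted p = 0.639), where Csf1, the other ligand, was at −0.31 (adjusted p = 0.828). Spi1, which encodes PU.1, was at 0.40 with extract on the low-fat diet (SE 0.25, adjusted p = 0.731).

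Genes of lipid-associated macrophages, the population described in fatty liver and adipose tissue, shared the pattern of the markers only in part (r = 0.53 over the arrays). Of 8 measured, 1 rose and 0 fell with extract on the low-fat diet, which was Fabp5. Fabp5, a fatty acid binding protein of macrophages and many other cells, rose by 1.24 (SE 0.15, adjusted p = 0.0049), with 0.158% of all genes past the threshold, and kept its call in all 20 alternatives run. Its average extract effect was 0.78 (SE 0.10, adjusted p = 0.00642). Mmp12, macrophage elastase, was at −1.40 with extract on the high-fat diet (SE 0.35, adjusted p = 0.36). By unadjusted p under 0.05 in limma, 3 of the 8 were higher in high-fat than in low-fat control (median 0.48, 6.78% of all genes in either direction). With extract on the high-fat diet 3 were lower and 1 higher (median −0.53, 6.99%). With extract on the low-fat diet 2 were higher (median 0.04, 8.05%). In the difference of the extract effects 2 were lower (median −0.80, 5.09%). In high-fat control replicate 1 the lipid-associated genes lay 0.92 above their 12-array means (median over the genes), and in replicate 3 at 0.02, where the resident markers lay at −0.80. Of 9 genes of monocyte-derived macrophages 0 passed in any comparison, and most of the 9 were dimmer than the median gene. Their median fold change was 0.26 in high-fat against low-fat control, with 9 above 0. By limma 0 of them had an unadjusted p under 0.05 (6.78% of all genes). With extract on the high-fat diet it was −0.35, with 0 above 0 and 2 lower by that measure (6.99% in either direction). The median deviation of the 9 genes was 0.58 in high-fat control replicate 1 and 0.14 in replicate 3.

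Lists of other cells moved with the markers in part. Sinusoidal endothelial markers had r = 0.77 with the mean of the markers, and lay at −0.25 in high-fat control replicate 3 and at −0.25 in low-fat control replicate 2 (median over 7 genes). The median over the stellate cell and matrix genes lay at 0.89 in high-fat control replicate 1 and at 0.00 (0.0033) in replicate 3. The median over the hepatocyte markers lay between −0.09 and 0.09 on every array, that over the neutrophil markers between −0.23 and 0.21 and that over the lymphocyte markers between −0.12 and 0.26. Single genes ran further, such as Cps1 from 12.21 to 12.90 and Tat from 12.37 to 13.14. Most of the neutrophil and lymphocyte genes were dimmer than the median gene (5.10), so that small deviations do not show that these cells stayed level. Summed on the linear scale, the 5 resident markers ran from 656.1 to 1469 in the high-fat controls, and the 7 hepatocyte markers from 45086 to 49377. Of the 7 endothelial and of the 8 matrix genes, 0 passed the threshold in any comparison, while by unadjusted p under 0.05 some lay apart. In the average extract effect 4 endothelial genes and 1 matrix gene were higher, against 5.2% of all genes. Of the 8 matrix genes 4 were higher in high-fat than in low-fat control (median 0.48; 6.78% of all genes in either direction). With extract on the high-fat diet 4 were lower (median −0.43; 6.99%), and 4 were lower in the difference of the extract effects (5.09%). The part of these cells, or of the piece of liver sampled, in the swings of the macrophage markers was not tested.

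**Figure D5:**
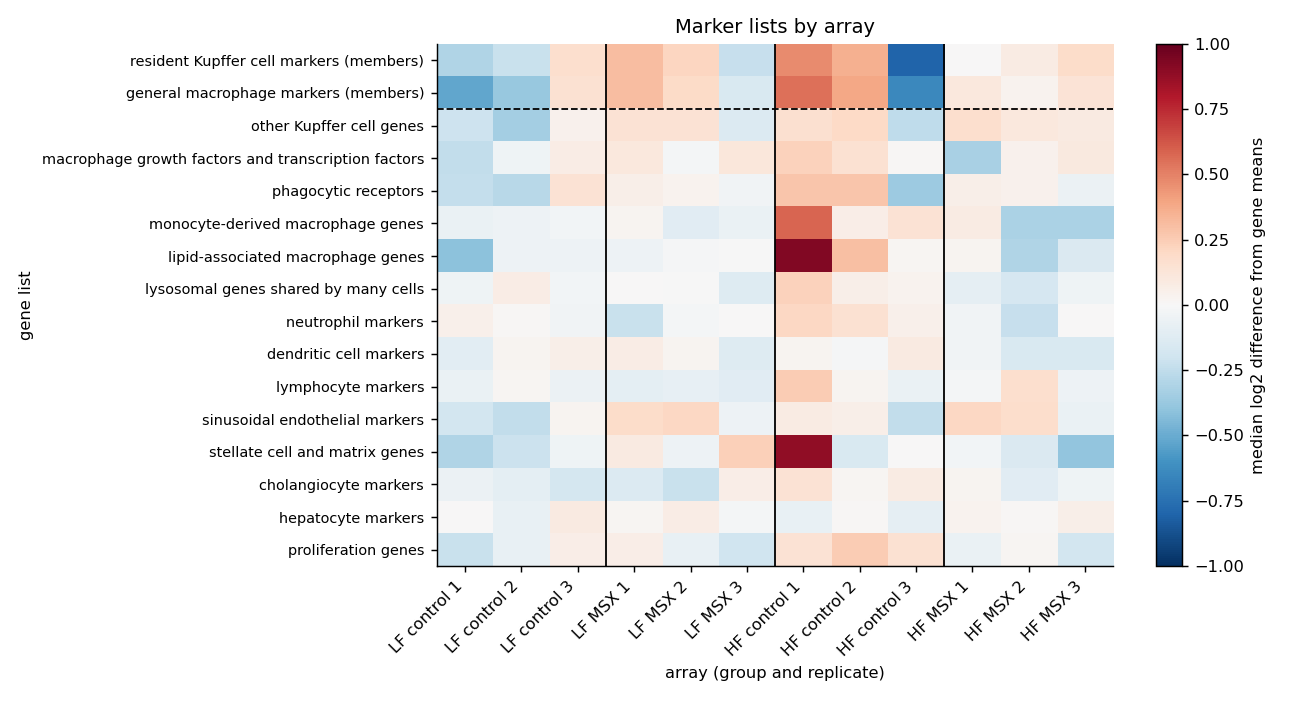
Median log2 difference from the 12-array gene means (colour) of 16 marker lists (rows; the 10 markers are the first pair, above the dashed line) on each of the 12 arrays (columns). The blue of high-fat control replicate 3 is deepest in the macrophage rows, while the red of replicate 1 is also present in the rows of lipid-associated macrophage and of stellate cell and matrix genes.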

How the data were processed

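RNA of 12 liver samples was measured on 1 Affymetrix mouse array each. The authors deposited log2 values per probe set, and the submitters' processing notes name the Transcriptome Analysis Console. Its version and normalization are not stated in the sources at hand. The values entered the fits unchanged, with no filter on dim genes. Symbols were taken from the annotation of the platform: of 41345 probe sets 23521 had 1 symbol, and of several for a gene the brightest on average was kept, which left 22180 genes.

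Each comparison was a contrast of 4 group means fitted with limma 3.58.1 (R 4.3.3) on all 12 arrays, two-sided, with 8 residual and 5.18 prior degrees of freedom, and p-values were adjusted by Benjamini-Hochberg over all genes. A fold change is a log2 difference of group means and SE its moderated standard error. Correlations are Pearson's. Precision is limited by the number of arrays: exact permutation of 3 against 3 cannot reach below p = 0.1. If replicates were not separate animals, p-values measure only the spread between these samples, which may be technical. The labels give no batch. The fit was tested on simulated data.

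The members, the other 14 gene lists and the rule for named genes were chosen with earlier results of these data known. The rule names all members, the 2 genes of lowest p in the average extract effect or the defining genes of each list, and the 5 genes of most similar pattern; Csf1, Folr2, Cd163, C1qc and Cps1 were named besides, after their values were seen. Alternatives were a replicate block, quantile normalization, median centring, the mean of probe sets, a filter on dim genes, trend and robust eBayes, array weights, only the groups compared, and each array left out.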

Additional observations from a re-analysis of the deposited data

How the results depend on the processing

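The count of members past the threshold was 0 in all 7 comparisons and stayed 0 under every alternative, the replicate block included (137 counts over comparisons and settings). The count by unadjusted p was less stable, as given beside each comparison. No pairing by replicate number was seen: the correlations of residuals between arrays of 1 number lay between −0.13 and 0.11. Of 12 arrays, 5 correlated best with their own number. Taken over all genes with 3 arrays a group, these values cannot exclude a shared batch that acts on some genes. The replicate block cannot change a difference of group means in this balanced design (the median of the members in the comparison of the control groups is 0.29 with and without it), nor can the eBayes setting or the fit of only the groups compared. All 10 members have 1 probe set and pass the filter on dim genes, so that those settings cannot either.

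Single members were all followed for the diet without extract and for the extract on each diet. Marco was followed in every comparison, and Vsig4 also in the average extract effect. Under settings other than a left-out array, 171 of these 276 fold changes were therefore identical. Of the other 105, 103 kept their direction and 2 turned. Clec4f with the diet without extract turned to −0.0037 after quantile normalization, and Cd5l with extract on the high-fat diet to −0.0037 with array weights. Fold changes not followed are outside these counts. For the diet effect with extract, followed only for Marco, the median of the members turned from 0.02 to −0.04 with array weights. With 1 array left out, 186 of 420 were identical, since the array was in neither group; of the other 234, 203 kept their direction and 31 turned, and none passed the threshold before or after. For the extract on the high-fat diet these fold changes ran from −0.42 to 0.22 for Adgre1, −0.27 to 0.13 for C1qa, −0.48 to 0.35 for C1qb, −0.38 to 0.27 for Cd5l, −0.44 to 0.15 for Cd68, −0.13 to 0.36 for Clec4f, −0.38 to 0.22 for Csf1r, −0.36 to 0.025 for Marco, −0.33 to 0.40 for Timd4 and −0.17 to 0.68 for Vsig4. For the diet without extract they ran from −0.10 to 0.56 for Cd5l, −0.19 to 0.30 for Clec4f, −0.0084 to 0.59 for Csf1r, −0.31 to 0.077 for Marco and −0.10 to 0.62 for Timd4, and, with no turn, from 0.12 to 0.95 for C1qb, 0.055 to 0.91 for Vsig4, 0.12 to 0.76 for Adgre1, 0.23 to 0.87 for Cd68 and 0.21 to 0.62 for C1qa.

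The median of the members for the difference of both extract effects was −0.29 and ran from −0.72 without high-fat control replicate 3 to −0.075 without replicate 2 of that group. Resident minus general markers was −0.27 for the diet without extract (−0.36 to −0.12 with an array left out) and −0.21 for the extract on the low-fat diet (−0.29 to −0.059). It was 0.34 for the difference of the extract effects (0.19 to 0.43), and in each case it was nearest 0 without low-fat control replicate 1. Each resident mean includes Marco. For the extract on the low-fat diet Marco was at −0.68 and the other resident genes between 0.17 and 0.67, with a general mean of 0.37. In the difference of the extract effects Marco was at 0.51 and the other resident genes between −0.27 and −0.10, with a general mean of −0.40. The gap without Marco was not taken. The fit of only the groups compared gives no value for the 3 comparisons that use all 4 groups. The call of Cd36 with extract on the high-fat diet held in 6 of 20 alternatives, with adjusted p between 0.0216 and 0.221, and the cause was not tested.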

Other observations

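Lysosomal genes that many cells share, which include enzymes that Cd68-positive lysosomes hold, did not follow the macrophage markers (r = 0.25 over the 12 arrays between the median of 7 such genes and the mean of the markers). Of the 7, 0 passed the threshold in any comparison by limma, and in the average extract effect 0 were higher and 1 lower by unadjusted p under 0.05, against 5.2% and 4.46% of all genes; with extract on the high-fat diet 2 were lower (6.99% of all genes in either direction). The gene in the average was Hexa, a subunit of beta-hexosaminidase, at −0.56 (SE 0.12, adjusted p = 0.0802). All 6 MSX arrays lay below all 6 control arrays for Hexa, and the share of all genes separated in this way was not counted. Ctsl, cathepsin L, was at −0.14 (SE 0.09, adjusted p = 0.678).

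Of 5 dendritic cell, 5 cholangiocyte, 6 neutrophil, 8 lymphocyte and 4 proliferation genes measured, 0 passed the threshold in any comparison by limma, and in the average extract effect 0 were higher by unadjusted p under 0.05 and 1 lymphocyte and 1 cholangiocyte gene were lower, against 5.2% and 4.46% of all genes. Of the 4 proliferation genes 2 were higher by that measure in high-fat than in low-fat control (6.78% of all genes in either direction) and 2 in the average diet effect (5.94%), and 2 of the 8 lymphocyte genes were higher in the average diet effect. Their lists had r between −0.10 and 0.41 with the mean of the markers. Most genes of each of these lists were dimmer than the median gene, so that these values do not show that such cells stayed level. Ccr2, the chemokine receptor of inflammatory monocytes, had a log2 fold change of −0.48 with extract on the high-fat diet (SE 0.16, adjusted p = 0.63), with values around 3.67 on the log2 scale, below the median gene at 5.10.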
